A study of Mus musculus with 4 samples.

Results

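PαS cells are mesenchymal cells that carry PDGFRα and Sca-1 on their surface and are regarded as enriched for mesenchymal stem cells. They had been sorted from the injury tissue in and around the drilled femur of wild-type C57BL/6J mice, after cells positive for CD45, CD11b, Ter119, CD31 or CD34 were gated away. Each culture was kept for 7 days in osteogenic medium, which held ascorbic acid, dexamethasone and β-glycerophosphate in all 4 conditions. The groups with IL-17A were IL-17A alone at 10 ng/ml and IL-17A at 10 ng/ml with BMP-2 at 500 ng/ml, and those without were no cytokine and BMP-2 alone at 500 ng/ml. Every condition was a single library, so 2 libraries with IL-17A were set against 2 without it as 2 pairs that share no library: IL-17A over no cytokine, the pair without BMP-2, and IL-17A + BMP-2 over BMP-2, the pair with BMP-2. How many mice or wells went into a library is not given in the sources used here. The comparison asks which messenger RNAs differed with IL-17A whether or not BMP-2 was present, with the well known IL-17 target genes set aside in a list of their own.

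The files list 46517 genes. A gene was tested where its exon reads averaged 50 or more per library, which left 8607. Of these, 4655 had a ratio on the same side of 1 in both pairs, and 4638 of them were not in the list of IL-17 target genes. Exon reads numbered 4190612 to 4719412 per library. Ratios were taken after TMM scaling, which equalises libraries on the bulk of their genes. Intervals on ratios are exact 95% intervals for counting error only: they hold nothing of the variation between cultures, and the polymerase chain reaction copies in these libraries were not marked by molecular identifiers, so reads are not independent molecules. No result below has a replicate check.

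IL-17A is made mainly by T cells of the Th17 and γδ lineages. It binds a receptor that contains IL-17RA, and the adaptor Act1 and the ubiquitin ligase TRAF6 carry the signal to NF-κB, C/EBPβ, C/EBPδ and MAP kinases. In fibroblasts and other mesenchymal cells it is known for raising chemokines that draw neutrophils and for prolonging the life of mRNAs with AU-rich elements in their 3′ untranslated region. BMP-2 is a bone morphogenetic protein that acts through SMAD proteins and promotes differentiation into osteoblasts.

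The cells carried the response by which the comparison was labelled. Cxcl5, a neutrophil chemokine, had 4882 reads with IL-17A against 189 with no cytokine, and 6263 reads with IL-17A + BMP-2 against 306 with BMP-2. Lcn2, the iron-carrier binding protein lipocalin-2, had 532 reads with IL-17A against 12 with no cytokine, and 578 with IL-17A + BMP-2 against 67 with BMP-2. Nfkbiz, whose product IκBζ works beside NF-κB on target promoters, had 527 reads with IL-17A against 28 with no cytokine, and 477 with IL-17A + BMP-2 against 64 with BMP-2. Both IL-17A libraries lay above both libraries without IL-17A for all 3 genes. The list of IL-17 target genes held 37 genes, of which 19 passed the filter on mean reads. That filter used all libraries, so a gene with few reads without IL-17A could pass on its reads with IL-17A. Cxcl1 had 308 reads with IL-17A against 27 with no cytokine, and 495 with IL-17A + BMP-2 against 26 with BMP-2. The counts and medians here therefore describe the genes that passed and not the whole list. Of the 19 measured IL-17 target genes, 16 were higher in both pairs, 1 was lower in both (Icam1) and 2 went in opposite directions (Ptges and Vcam1). Their median log2 ratio was 1.49 in the pair without BMP-2 and 1.31 in the pair with BMP-2, beside 0.0018 and 0.0026 over all genes tested.

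Over the whole table the pairs were only weakly alike. Over all genes tested, 2340 (27.2%) were higher with IL-17A in both pairs, 2315 (26.9%) were lower in both and 3952 went in opposite directions, so the same direction held for 54.1%. Pearson's r of the 2 log2 ratios across genes was 0.12, and 0.11 without the IL-17 target genes; genes are not independent replicates, and the value is a description. The same measure for BMP-2, taken with and without IL-17A, was 0.038. With a ratio of at least 2 and an interval above 1 in both pairs, 123 genes were higher (1.43% of those tested) and 120 were lower (1.39%), beside 154 genes that were 2-fold apart in opposite directions. Of the 123 higher genes, 10 were IL-17 target genes and 113 were not. Without the target genes, same-direction genes outnumbered the opposite ones 1.51 to 1 at 2-fold (113 higher and 120 lower against 154), and 3.57 to 1 at 4-fold, with 15 higher, 10 lower and 7 opposite.

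**Figure D1:**
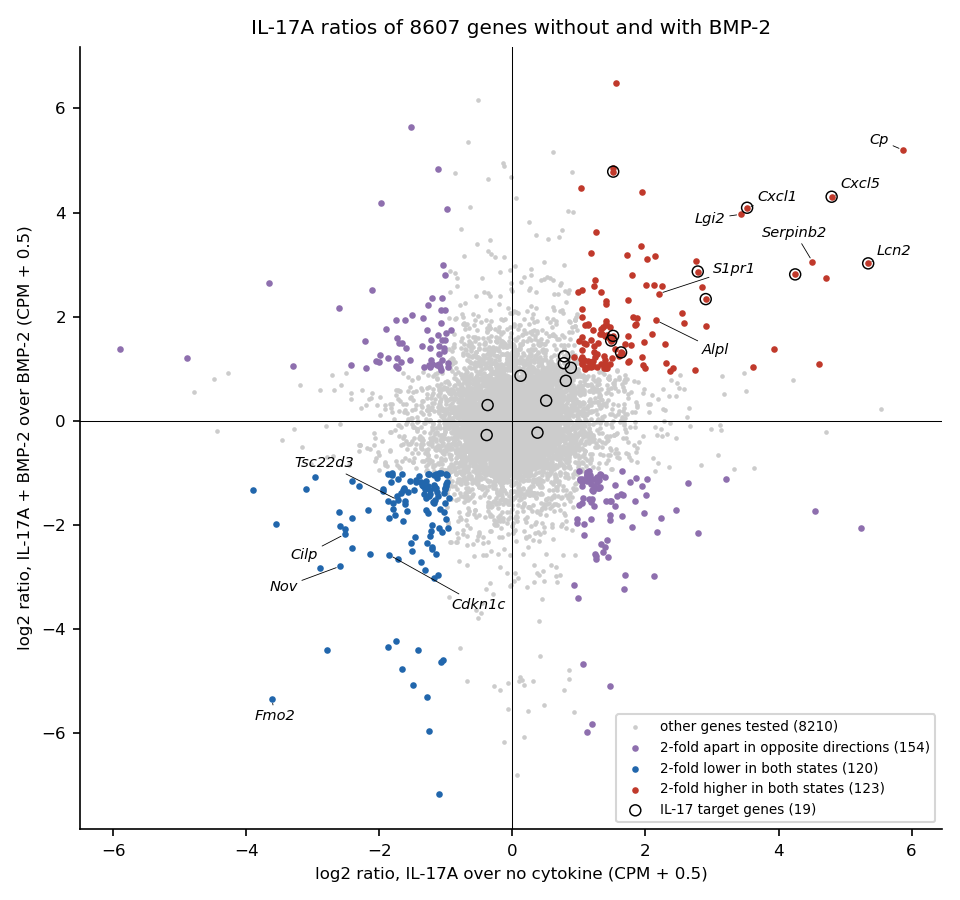
Log2 ratio with IL-17A in the pair without BMP-2 (x axis) against the pair with BMP-2 (y axis), one point per gene tested, with a pseudocount of 0.5 on reads scaled to library size (CPM). Genes at least 2-fold higher in both pairs (123, red) and lower in both (120, blue) sit in the upper right and lower left corners, and 154 genes (purple) sit in the other 2 corners; open circles mark the 19 IL-17 target genes.

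The likeness of the pairs differed with read depth. Among genes with 50 to 100 mean reads, r was 0.085 and 95 genes were 2-fold apart in opposite directions, against 69 higher and 59 lower in both. Among genes with 1000 reads or more, r was 0.46 and the same direction held for 60.4%. Of the 1859 genes with at least 500 mean reads, 6 were 2-fold higher in both pairs, 8 were 2-fold lower in both and 0 were opposite. The 243 genes 2-fold apart in the same direction had a median of 95.5 mean reads, close to the 87.8 of the opposite genes and under the 208 of all genes tested. Counting error and variation between amplifications cannot be told apart here for a gene of few reads.

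**Figure D2:**
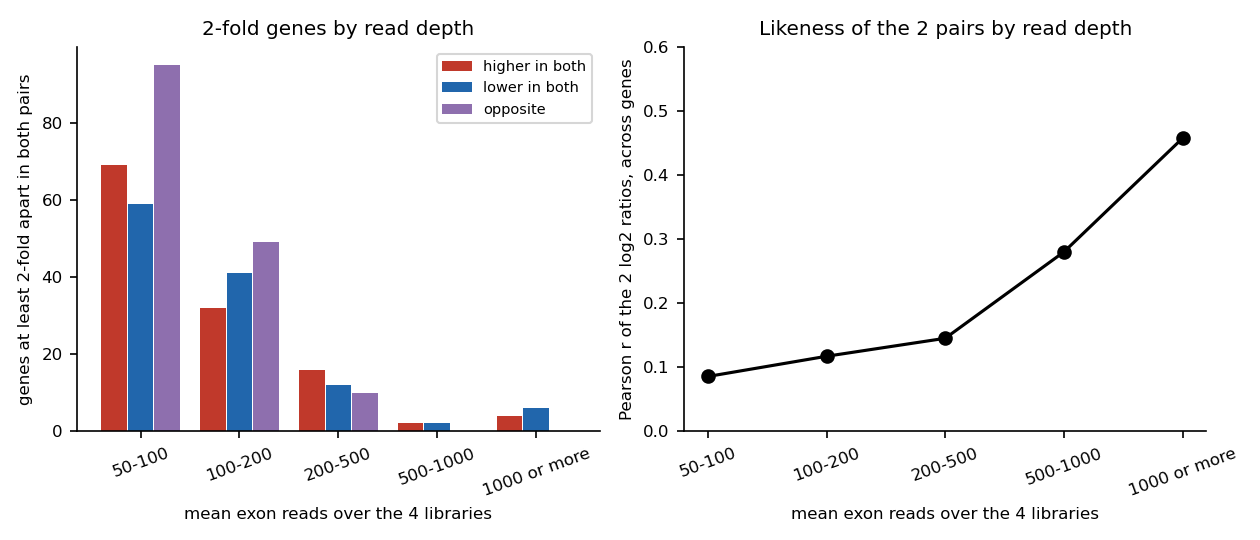
Left, number of genes at least 2-fold apart in both pairs by mean exon reads over the 4 libraries, as higher in both, lower in both and opposite. Right, Pearson's r of the 2 log2 ratios across the genes of each depth class. Opposite genes outnumber either same-direction class below 200 reads and are at 0 from 500 reads on, and r is 0.085 in the shallowest class and 0.46 in the deepest.

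The deep genes, chosen for description after their values were seen, rest on the most reads. The 6 higher ones were Cxcl5, Ccl2 and Ccl7, which are IL-17 target genes, and Serpinb2, Alpl and Mt2, which are not. Serpinb2 encodes plasminogen activator inhibitor 2, an intracellular serpin of wounded and inflamed tissue. It had 380 reads with IL-17A against 16 with no cytokine, a ratio of 25.9 (15.7 to 45.7), and 1442 with IL-17A + BMP-2 against 166 with BMP-2, a ratio of 8.44 (7.18 to 9.97). Alpl encodes the tissue-nonspecific alkaline phosphatase that osteoblasts use in mineralization. It had 864 reads with IL-17A against 209 with no cytokine, a ratio of 4.50 (3.87 to 5.26), and 1435 with IL-17A + BMP-2 against 364 with BMP-2, a ratio of 3.83 (3.41 to 4.31). Of the measured osteoblast genes, Alpl was the only one at least 2-fold higher in both pairs. Mt2, a metallothionein that binds zinc and copper, had 3514 reads with IL-17A against 715 with no cytokine and 2943 with IL-17A + BMP-2 against 1421 with BMP-2. Its ratio was 5.36 (4.94 to 5.81) without BMP-2 and 2.01 (1.89 to 2.15) with it, and its neighbour Mt1 had ratios of 2.14 and 1.77.

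The 8 deep genes that were lower with IL-17A were led by matrix and growth factor genes. Cilp encodes a cartilage and fibroblast matrix protein that binds TGF-β and IGF-1. It had 241 reads with IL-17A against 1516 with no cytokine, a ratio of 0.173 (0.151 to 0.199), and 225 with IL-17A + BMP-2 against 999 with BMP-2, a ratio of 0.219 (0.189 to 0.253). Comp, a pentameric matrix protein of cartilage and tendon, had 568 reads with IL-17A against 1386 with no cytokine and 523 with IL-17A + BMP-2 against 1251 with BMP-2. Postn, which encodes the matrix protein periostin of periosteum and healing tissue, had 2259 reads with IL-17A against 5004 with no cytokine and 922 with IL-17A + BMP-2 against 3026 with BMP-2. All 3 lay lower in both IL-17A libraries than in either library without it. Gas6, the ligand of the receptor tyrosine kinase AXL, had 7177 reads with IL-17A against 17252 with no cytokine, a ratio of 0.453 (0.441 to 0.466), and 6636 with IL-17A + BMP-2 against 13071 with BMP-2, a ratio of 0.493 (0.479 to 0.508). The receptor gene Axl itself had ratios of 0.9500 and 1.02. Igfbp2, an insulin-like growth factor binding protein, had 1367 reads with IL-17A against 4088 with no cytokine and 1568 with IL-17A + BMP-2 against 3452 with BMP-2. Tsc22d3 encodes GILZ, a leucine zipper protein known as a target of glucocorticoids. It had 604 reads with IL-17A against 2169 with no cytokine, a ratio of 0.303 (0.277 to 0.332), and 558 with IL-17A + BMP-2 against 1563 with BMP-2, a ratio of 0.347 (0.314 to 0.382). The remaining pair were Aldh1a1, a retinaldehyde dehydrogenase, and Smpd3, a neutral sphingomyelinase, of which only 15.7% of exon reads were unique to the gene.

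The additive test gave 1 gene. In edgeR's quasi-likelihood test with BMP-2 as an additive term, fitted over all 8607 genes with Benjamini-Hochberg adjustment, Cxcl5 alone passed an adjusted p of 0.05 (0.0116% of genes tested), and 584 genes had an unadjusted p below 0.05. The fit has 1 residual degree of freedom, which is the departure from additivity and not a spread between replicates. DESeq2's Wald test on the same counts passed 47 genes, 23 higher and 24 lower, of which 7 were IL-17 target genes, and 35 of the 47 were among the 2-fold genes above. Among the 16 other higher genes were Serpinb2, Alpl, Mt2, Cp, Lgi2 and Slc16a3, and the lower ones included Cilp, Tsc22d3, Igfbp2, Gas6, Postn, Comp, C1qtnf3, Fmo2 and Cdkn1c. In the edgeR test with only genes of 200 mean reads or more, 7 genes passed: Cxcl5, Cxcl1, Ccl2, Serpinb2 and Alpl higher, and Cilp and Tsc22d3 lower.

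The genes whose smaller ratio of the 2 pairs was farthest from 1 were then ranked, leaving out IL-17 target genes, genes under 80% unique reads and unnamed gene models. The 20 highest had mean reads from 52.3 to 718, and 16 of the 20 were under 100, so most of these values rest on few reads. The ranking uses the ratios themselves, so the ratios of these genes are a description.

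**Figure D3:**
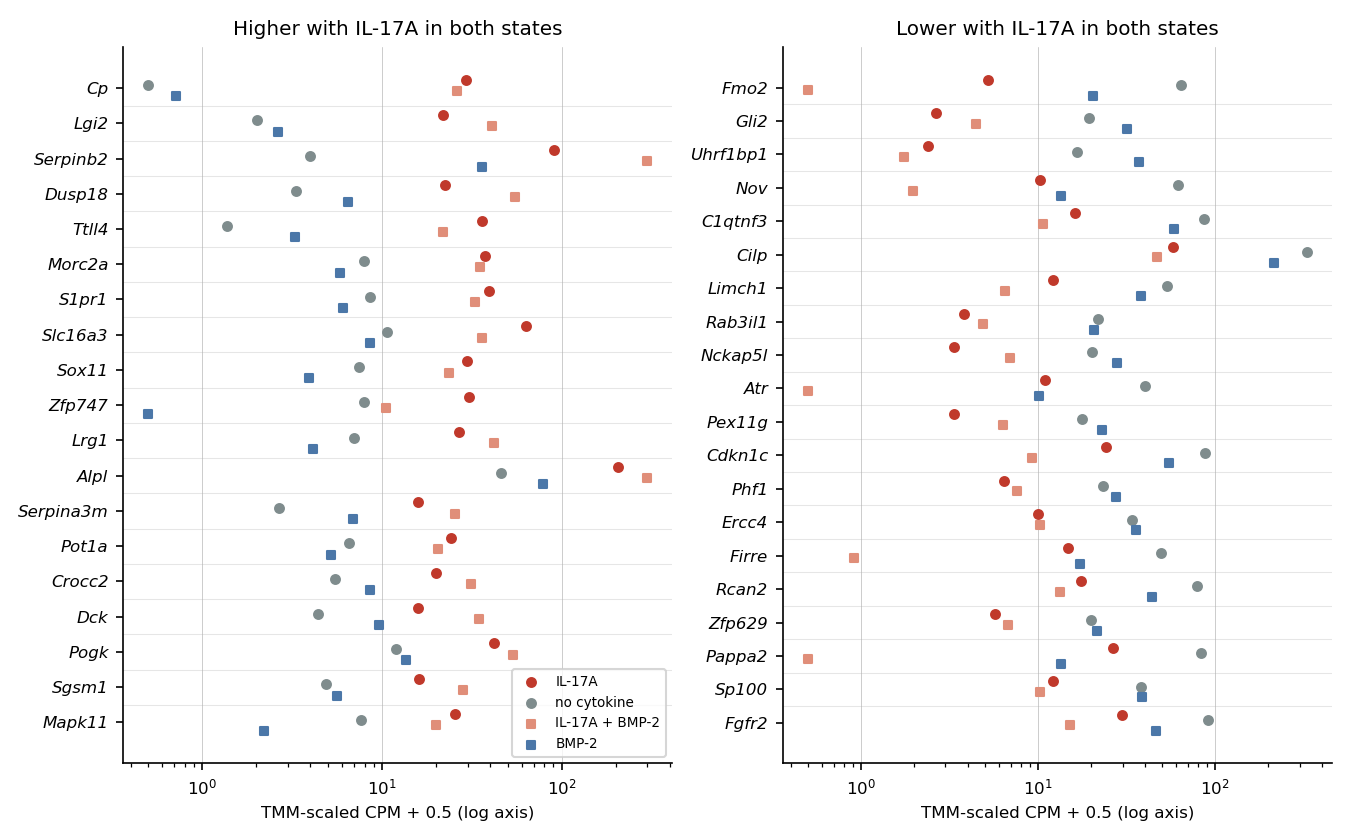
TMM-scaled CPM (plus 0.5, log axis) in each library for 19 of the 20 genes highest (left) and the 20 lowest (right) by the smaller of the 2 ratios, with IL-17A and no cytokine as circles and IL-17A + BMP-2 and BMP-2 as squares. For each gene the IL-17A library of a pair lies on the same side of its partner in both pairs; Zfp747 in BMP-2, Cp in no cytokine, and Fmo2, Atr and Pappa2 in IL-17A + BMP-2 had 0 reads.

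Among the 20 highest were genes of secreted proteins. Cp, which encodes the copper-carrying ferroxidase ceruloplasmin, an acute phase protein, had 121 reads with IL-17A against 0 with no cytokine, and 124 with IL-17A + BMP-2 against 1 with BMP-2. It was at least 43.9-fold higher in the pair without BMP-2, with a floor of 3 reads in the library at 0, and its ratio with BMP-2 was 120 (21.2 to 4797). Lrg1, a leucine-rich acute phase glycoprotein that acts on TGF-β signalling in endothelium, had 111 reads with IL-17A against 30 with no cytokine and 201 with IL-17A + BMP-2 against 17 with BMP-2. Serpina3m, a serpin of a family of near-identical copies whose reads may be split among genes, had 65 reads with IL-17A against 10 with no cytokine and 120 with IL-17A + BMP-2 against 30 with BMP-2. Lgi2, a secreted leucine-rich repeat protein, had 90 reads with IL-17A against 7 with no cytokine and 196 with IL-17A + BMP-2 against 10 with BMP-2. Its ratios were 14.0 (6.53 to 35.8) and 19.04 (10.1 to 40.3). For these 4 genes the lower IL-17A library stayed above the higher library without IL-17A. Over the complement and acute phase list as a whole, 7 of 14 measured genes were higher in both pairs and 3 were lower in both, and only Cp was 2-fold higher in both. The shares over all genes tested were 27.2% higher in both and 26.9% lower in both. Serping1, the C1 inhibitor, had 3099 reads with IL-17A against 1758 with no cytokine and 2383 with IL-17A + BMP-2 against 1498 with BMP-2, with ratios of 1.92 (1.81 to 2.04) and 1.55 (1.45 to 1.65).

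Others of the 20 encode receptors, transporters, signalling enzymes and transcription factors. S1pr1, the receptor through which sphingosine-1-phosphate guides cell migration, had 164 reads with IL-17A against 37 with no cytokine and 156 with IL-17A + BMP-2 against 26 with BMP-2. Slc16a3, the lactate exporter MCT4, had 264 reads with IL-17A against 47 with no cytokine, a ratio of 6.12 (4.47 to 8.54), and 172 with IL-17A + BMP-2 against 38 with BMP-2, a ratio of 4.40 (3.08 to 6.43). Mapk11, the β isoform of p38 MAP kinase, had 105 reads with IL-17A against 33 with no cytokine and 94 with IL-17A + BMP-2 against 8 with BMP-2. Dusp18, a dual specificity phosphatase, had 93 reads with IL-17A against 13 with no cytokine and 261 with IL-17A + BMP-2 against 28 with BMP-2. Sox11, a transcription factor of mesenchymal and neural progenitors, had 124 reads with IL-17A against 32 with no cytokine and 112 with IL-17A + BMP-2 against 16 with BMP-2. Also among the 20 were Ttll4, Morc2a, Zfp747, Pot1a, Crocc2, Dck, Pogk and Sgsm1, with ratios from 3.596 to 40.6 without BMP-2. Among the regulators of NF-κB, Bcl3, an IκB protein that works in the nucleus, had 292 reads with IL-17A against 63 with no cytokine and 182 with IL-17A + BMP-2 against 62 with BMP-2. Socs3, a feedback inhibitor of the JAK-STAT pathway, had 397 reads with IL-17A against 109 with no cytokine and 420 with IL-17A + BMP-2 against 192 with BMP-2. Of the 21 NF-κB genes measured, 8 were higher in both pairs and 2 were lower in both, beside 27.2% and 26.9% over all genes. The kinase subunit gene Chuk had ratios of 1.604 and 1.597, and Ikbkb had 0.530 and 0.508.

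The 20 lowest genes held secreted and matrix products and several growth regulators. Fmo2, a flavin monooxygenase, had 20 reads with IL-17A against 293 with no cytokine, a ratio of 0.0744 (0.0448 to 0.117), and 0 with IL-17A + BMP-2 against 93 with BMP-2, a ratio of at most 0.0313. Nov, also called CCN3, a matricellular protein, had 41 reads with IL-17A against 280 with no cytokine and 7 with IL-17A + BMP-2 against 61 with BMP-2. C1qtnf3, the secreted protein CTRP3, had 66 reads with IL-17A against 394 with no cytokine, a ratio of 0.183 (0.138 to 0.237), and 49 with IL-17A + BMP-2 against 270 with BMP-2, a ratio of 0.176 (0.127 to 0.240). Pappa2, a protease that cleaves insulin-like growth factor binding proteins, had 109 reads with IL-17A against 378 with no cytokine and 0 with IL-17A + BMP-2 against 61 with BMP-2. Gli2, a transcription factor of the hedgehog pathway, had 9 reads with IL-17A against 87 with no cytokine and 19 with IL-17A + BMP-2 against 146 with BMP-2. Fgfr2, a fibroblast growth factor receptor of osteoprogenitors, had 124 reads with IL-17A against 418 with no cytokine, a ratio of 0.323 (0.262 to 0.396), and 71 with IL-17A + BMP-2 against 214 with BMP-2, a ratio of 0.322 (0.243 to 0.423). Cdkn1c, the cyclin-dependent kinase inhibitor p57, had 100 reads with IL-17A against 399 with no cytokine and 42 with IL-17A + BMP-2 against 255 with BMP-2. Rcan2, an inhibitor of calcineurin, had 72 reads with IL-17A against 362 with no cytokine and 62 with IL-17A + BMP-2 against 203 with BMP-2. In each of these genes both IL-17A libraries lay below their partners, and Pappa2 overlapped across the pairs, at 25.9 CPM with IL-17A against 13.0 CPM with BMP-2. The others were Cilp, Limch1, Uhrf1bp1, Rab3il1, Nckap5l, Atr, Pex11g, Phf1, Ercc4, Firre, Zfp629 and Sp100. At the 2-fold limit, Ddx59 lay just inside on the higher side with ratios of 5.59 and 2.01 and Rif1 on the lower side with 0.499 and 0.349, while Dnajc9 with 1.996 and 2.001 and Zfp830 with 0.400 and 0.501 lay just outside.

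To see what carried from one BMP-2 state to the other, genes were ranked in 1 pair and read in the other, whose ratios were not used for the ranking. The filter on mean reads and the TMM scaling used all 4 libraries. In either pair, 50.1% of all genes tested were higher with IL-17A. Of the 100 genes highest with IL-17A in the pair without BMP-2, 64 were also higher in the pair with BMP-2, 35 at least 2-fold, while 13 were at least 2-fold lower, and their median log2 ratio there was 0.53. Over all genes tested, 8.45% were at least 2-fold higher and 8.99% at least 2-fold lower in that pair. Of the 100 lowest, 59 were also lower, 26 at least 2-fold, beside 15 that were 2-fold higher. The shares over all genes in the pair without BMP-2 were 6.55% at least 2-fold higher and 5.77% at least 2-fold lower. Chosen the other way round, 63 of the 100 highest with BMP-2 were higher without it, 31 at least 2-fold beside 7 that were 2-fold lower, but only 51 of the 100 lowest were lower, with a median log2 ratio of -0.03. Leaving out the IL-17 target genes lowered the counts for the highest to 61 and 58. Among these 100 lowest, 24 were at least 2-fold lower and 12 at least 2-fold higher.

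**Figure D4:**
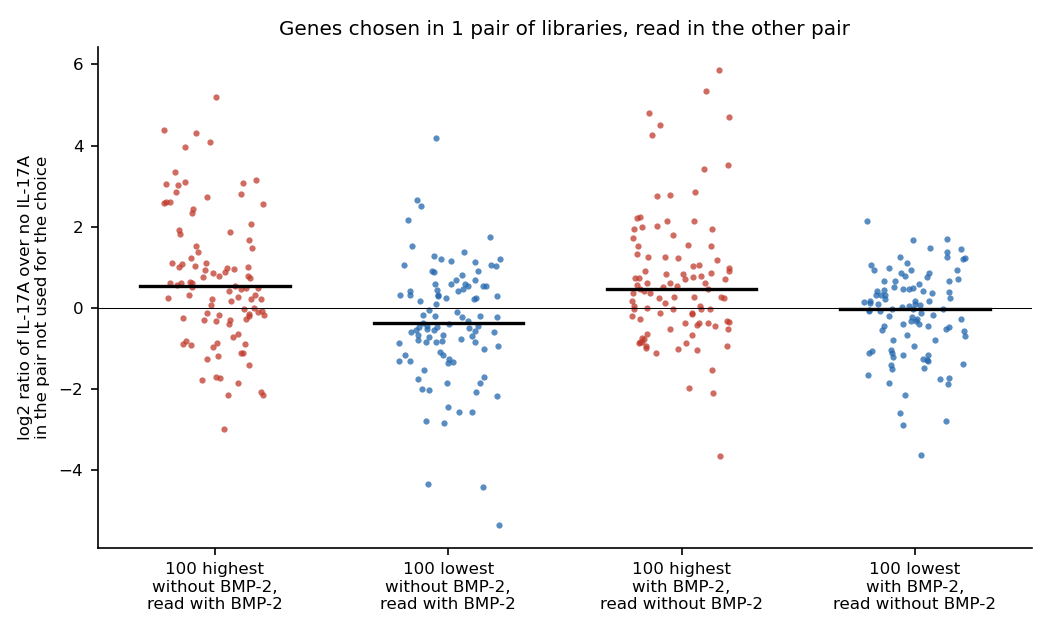
Log2 ratio with IL-17A (y axis) in the pair that was not used for the choice, for the 100 genes highest (red) and lowest (blue) in the other pair; each point is a gene and the black bar is the median. Medians are 0.53, -0.38, 0.47 and -0.03 from left to right, and every group holds genes on both sides of 0.

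Genes of cell division were mostly higher. Of 53 measured mitosis and spindle genes, 37 were higher with IL-17A in both pairs, 5 were lower in both and 11 were opposite, beside 27.2% and 26.9% over all genes, with median log2 ratios of 0.56 without BMP-2 and 0.45 with it. Only 2 of them were 2-fold higher in both. These were Nuf2, a kinetochore protein, with 204 reads with IL-17A against 79 with no cytokine and 251 with IL-17A + BMP-2 against 68 with BMP-2, and Kif22, a chromosome-moving kinesin, with 352 reads with IL-17A against 157 with no cytokine and 503 with IL-17A + BMP-2 against 237 with BMP-2. Mki67, the proliferation antigen Ki-67, had 232 reads with IL-17A against 135 with no cytokine and 239 with IL-17A + BMP-2 against 130 with BMP-2. The mitosis genes with the most reads were Cdc20, with ratios of 1.66 and 1.02, and Bub3, with 1.31 and 0.947. Of 39 DNA replication genes, 22 were higher in both and 3 lower, with medians of 0.43 and 0.30. The primase subunits Prim1 and Prim2 had ratios of 2.66 and 2.04, and of 2.91 and 3.07. Exceptions were among the most abundant: Rrm2, a subunit of ribonucleotide reductase, had 3130 reads with IL-17A against 4794 with no cytokine but 7643 with IL-17A + BMP-2 against 5646 with BMP-2, and by spliced reads alone it was lower in both pairs. Among the inhibitors of the cycle, Cdkn2b, encoding p15, had 430 reads with IL-17A against 909 with no cytokine and 397 with IL-17A + BMP-2 against 814 with BMP-2, alongside Cdkn1c above, whereas Cdkn1a, encoding p21, had ratios of 0.799 and 1.11.

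Interferon and antigen presentation genes leaned the other way. Of 15 interferon-stimulated genes measured, 0 were higher in both pairs, 11 were lower in both and 4 were opposite, with median log2 ratios of -0.49 without BMP-2 and -0.38 with it. The shares over all genes tested were 27.2% higher in both and 26.9% lower in both. Of the 15, 1 was 2-fold lower in both: Ifi35, an interferon-induced protein, had 137 reads with IL-17A against 334 with no cytokine and 77 with IL-17A + BMP-2 against 186 with BMP-2. Eif2ak2, the double-stranded RNA kinase PKR, had 63 reads with IL-17A against 127 with no cytokine and 56 with IL-17A + BMP-2 against 104 with BMP-2. The members with the most reads lay closer to 1: Ifitm3 had ratios of 0.791 and 0.963, and Ifitm2 had 0.898 and 0.900. Of 14 genes of MHC class I presentation, 9 were lower in both and 0 were higher in both. The peptide transporter gene Tap2 had ratios of 0.702 and 0.594, and Tapbp, its partner tapasin, 0.715 and 0.636. None of the 14 was 2-fold lower in both.

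Matrix, Wnt and adhesion genes were more often lower in both pairs than higher, where over all genes tested 26.9% were lower and 27.2% higher. Of 20 collagens, 11 were lower in both pairs and 2 higher, with none 2-fold apart in both. Col6a2 had ratios of 0.705 and 0.708 and Col6a3 of 0.685 and 0.693, while Col1a1, the main collagen of bone, had 1.06 and 0.773 and Col1a2 1.12 and 0.760. Of 50 matrix glycoproteins and proteoglycans, 27 were lower in both and 9 higher; Thbs1, a matricellular activator of TGF-β and one of the most abundant, had 26644 reads with IL-17A against 39573 with no cytokine and 15677 with IL-17A + BMP-2 against 29012 with BMP-2. Spp1, encoding osteopontin and chosen after its values were seen, was an exception, with ratios of 1.78 and 2.25. Of 21 Wnt pathway genes, 12 were lower in both and 1 was higher. Dkk2, a secreted modulator of the co-receptors LRP5 and LRP6, had 147 reads with IL-17A against 442 with no cytokine and 107 with IL-17A + BMP-2 against 231 with BMP-2. Lrp6 had ratios of 0.486 and 0.328, and the receptor gene Fzd4 0.507 and 0.436. Of 24 surface and adhesion genes, 14 were lower in both and 1 higher. Ly6a, which encodes the Sca-1 used to sort the cells, had 7636 reads with IL-17A against 10269 with no cytokine and 8944 with IL-17A + BMP-2 against 10973 with BMP-2. Pdgfra, which encodes the PDGFRα also used for sorting, went the other way. It had 166 CPM with IL-17A against 161 with no cytokine, and 144 with IL-17A + BMP-2 against 80.2 with BMP-2. Of 37 genes for endoplasmic reticulum chaperones and the unfolded protein response, 18 were lower in both and 4 higher, with medians of -0.15 and -0.11, and none was 2-fold apart in both pairs in the same direction. Of 7 hyaluronan genes, 3 were higher in both and 2 lower. Has2, a hyaluronan synthase, had ratios of 0.504 and 0.516, and Hmmr, a hyaluronan receptor that also works at the spindle, 1.57 and 1.96.

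In the other lists described here, no direction held for most of the measured members in both pairs. Over all genes tested, 27.2% were higher in both and 26.9% lower in both. Of 35 matrix protease and inhibitor genes, 16 were lower in both and 8 higher, with median log2 ratios of -0.15 without BMP-2 and -0.19 with it. Of 28 cytokine and TNF receptor genes, 12 were higher in both and 5 lower, with medians of 0.16 and 0.08. Of 16 osteoblast genes, 5 were higher in both pairs and 6 lower in both. Beside Alpl, the osteoblast markers Runx2, a transcription factor gene with ratios of 0.624 and 0.755, and Sp7, another with 1.07 and 1.12, were less than 2-fold apart, and Bmp6 had ratios of 0.414 and 0.196. Of 30 fat and lipid genes, 14 were higher in both and 6 lower, but the median log2 ratio was -0.02 without BMP-2 and 0.30 with it. Of 23 glycolysis genes, 10 were higher in both and 6 lower; Pdk4, a kinase that restrains entry of pyruvate into mitochondria, had 115 reads with IL-17A against 438 with no cytokine and 134 with IL-17A + BMP-2 against 396 with BMP-2. Genes of the IL-17 receptor and its adaptors were higher in both in 3 of 17 and lower in 5, and Il17ra itself, chosen here after its values were seen, had ratios of 1.43 and 0.456. All counts over lists are descriptions without a test.

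**Figure D5:**
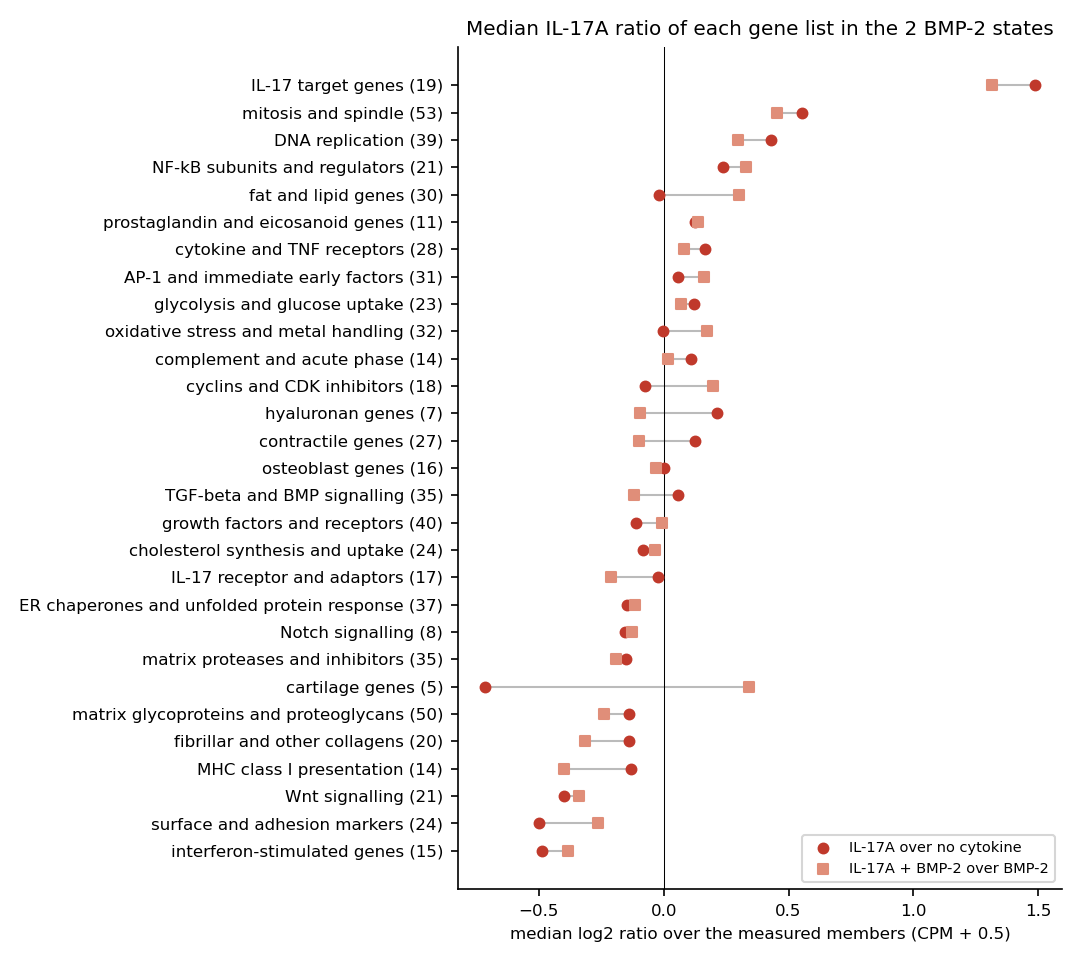
Median log2 ratio with IL-17A over the measured members of each list (number in parentheses), in the pair without BMP-2 (circles) and the pair with BMP-2 (squares), for the lists with at least 5 measured members. The medians lie at 1.49 and 1.31 for IL-17 target genes, 0.56 and 0.45 for mitosis, and -0.49 and -0.38 for interferon-stimulated genes, in the pairs without and with BMP-2.

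Markers of other cell types ranged from absent to abundant, and some differed within the pairs. Counts of markers by direction include genes of any read depth, down to a few reads. The shares over all genes tested were 27.2% higher in both pairs and 26.9% lower in both. The 13 markers of PαS and mesenchymal cells were all present, at a summed level of 27405 CPM with IL-17A against 27014 with no cytokine and 19176 with IL-17A + BMP-2 against 24741 with BMP-2. Collagens made up most of the sum: Col1a1, Col1a2 and Col3a1 had 8454, 7449 and 6250 CPM with IL-17A. Of the 13, 1 was higher and 6 were lower in both pairs. Macrophage markers summed to 170 CPM with IL-17A against 193 with no cytokine and 138 with IL-17A + BMP-2 against 488 with BMP-2. Of 19 found in the files, 7 were lower and 0 higher in both pairs, and only 2 averaged 50 reads or more. Lyz2, the lysozyme of macrophages, had 509 reads with IL-17A against 548 with no cytokine and 410 with IL-17A + BMP-2 against 1728 with BMP-2. Csf1r was the other marker averaging 50 reads or more. It had 108 reads with IL-17A against 130 with no cytokine, but 183 with IL-17A + BMP-2 against 61 with BMP-2. Endothelial markers summed to 26.3 CPM with IL-17A against 54.4 with no cytokine and 13.9 with IL-17A + BMP-2 against 35.9 with BMP-2, and their defining markers Pecam1 and Cdh5 had 0 reads in all 4 libraries. Of the 13, 3 were lower and 0 higher in both pairs, and none averaged 50 reads. Kdr, a receptor for vascular endothelial growth factor, had 0 reads with IL-17A against 117 with no cytokine and 0 with IL-17A + BMP-2 against 70 with BMP-2. Tek had 51 reads with IL-17A against 0 with no cytokine, but 23 with IL-17A + BMP-2 against 63 with BMP-2. Emcn had 0 reads with IL-17A against 3 with no cytokine, but 23 with IL-17A + BMP-2 against 0 with BMP-2. Chondrocyte markers, which include Comp, summed to 256 CPM with IL-17A against 443 with no cytokine and 182 with IL-17A + BMP-2 against 452 with BMP-2. Fat cell markers summed to 488 CPM with IL-17A against 433 with no cytokine and 877 with IL-17A + BMP-2 against 495 with BMP-2, and 5 of the 8 were higher in both pairs while 2 were lower in both. Smooth muscle and pericyte markers summed to 6986 CPM with IL-17A against 6822 with no cytokine and 6237 with IL-17A + BMP-2 against 6801 with BMP-2, with 2 of 10 higher and 2 lower in both pairs. Mast cell, erythroid and epithelial markers summed to at most 1 read in a library. The part of these cells in the interferon, MHC, matrix and lipid genes was not tested, and fewer cells of a type and less RNA per cell cannot be told apart in such samples.

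Intron reads did not enter the choice of genes, but come from the same libraries and could be read for few of them. Among the 113 higher genes outside the target list, 31 had at least 20 intron reads in each pair, and of these 11 were higher by intron reads in both pairs and 2 were lower in both. Among the 120 lower genes, 36 had enough intron reads, and 18 were lower in both and 2 higher in both. Over all genes with enough intron reads, 27.8% were higher in both and 22.7% lower in both, beside 35.5% of the 31 higher genes that were higher in both. With at least 50 intron reads in each pair, 4 of 12 higher genes were higher in both, and 3 of 10 lower genes were lower in both, beside 26.9% and 23.7% over all genes. The median log2 ratio of those 10 lower genes by intron reads was 0.64 without BMP-2 and -0.79 with it.

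The sequences of the promoters were searched for 3 short motifs, since NF-κB, C/EBP and AP-1 factors carry much of the known response to IL-17A. The motifs were GGNNTTTCC for NF-κB, TTGCNNAA for C/EBP and TGANTCA for AP-1, on both strands, where N is any base. The promoters are those of RefSeq on GRCm38.p6, 250 bases before to 50 after the start of transcription, and 92 of the 113 higher and 99 of the 120 lower genes had at least 1. Of the 114 promoters of higher genes, 5.26% held the NF-κB letters, 17.5% the C/EBP letters and 7.02% the AP-1 letters. Of the 127 promoters of lower genes, 11.02%, 11.02% and 8.66% held them, in that order, and of the 8974 promoters of all genes tested 5.85%, 8.25% and 4.84%. Over all 32851 promoters in the table the shares were 5.82%, 10.8% and 7.81%. Beside all genes tested, the C/EBP letters were more frequent in both groups, as counts of 20 promoters of higher and 14 of lower genes. The AP-1 letters were so too, as counts of 8 and 11. The NF-κB letters were more frequent only in the lower genes, as counts of 6 promoters of higher and 14 of lower genes. The promoters of the IL-17 target genes were matched for 62.5% of genes and are not compared. Promoters of 1 gene can overlap and share a hit, as those of Sp100 do.

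4 promoters are shown for the genes with the highest and lowest ratios that held a motif and for Lcn2 as a known target, with the motifs in capitals. In Cp (chr3:19956999-19957298, plus strand) the NF-κB letters start 146 bases and the C/EBP letters 70 bases before the start of transcription. In Serpinb2 (chr1:107511173-107511472, plus strand) the C/EBP letters start 202 bases and the AP-1 letters 94 bases before it. In Lcn2 (chr2:32387690-32387989, minus strand) the C/EBP letters start 216 bases before it, and in Fmo2 (chr1:162898444-162898743, minus strand) 69 bases before it. Cp, Serpinb2 and Fmo2 each have another promoter that is not shown. That of Cp held only the AP-1 letters, and those of Serpinb2 and Fmo2 held letters for the same factors as the promoters shown.
Cp: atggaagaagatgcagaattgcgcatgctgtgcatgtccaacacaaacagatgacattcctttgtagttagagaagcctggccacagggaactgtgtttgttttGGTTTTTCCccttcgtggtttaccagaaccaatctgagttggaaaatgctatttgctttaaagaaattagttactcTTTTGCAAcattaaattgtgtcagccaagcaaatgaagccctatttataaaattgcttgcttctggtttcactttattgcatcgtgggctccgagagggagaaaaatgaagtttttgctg
Serpinb2: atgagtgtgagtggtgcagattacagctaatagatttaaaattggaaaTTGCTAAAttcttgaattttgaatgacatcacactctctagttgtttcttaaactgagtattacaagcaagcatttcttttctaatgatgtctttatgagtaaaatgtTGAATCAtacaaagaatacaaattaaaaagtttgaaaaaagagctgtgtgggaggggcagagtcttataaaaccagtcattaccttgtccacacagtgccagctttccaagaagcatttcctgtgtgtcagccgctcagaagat
Lcn2: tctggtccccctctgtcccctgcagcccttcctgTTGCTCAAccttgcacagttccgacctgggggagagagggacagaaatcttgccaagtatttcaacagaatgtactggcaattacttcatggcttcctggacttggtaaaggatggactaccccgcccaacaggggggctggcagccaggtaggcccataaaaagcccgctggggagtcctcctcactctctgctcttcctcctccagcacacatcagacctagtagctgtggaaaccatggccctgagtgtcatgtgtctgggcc
Fmo2: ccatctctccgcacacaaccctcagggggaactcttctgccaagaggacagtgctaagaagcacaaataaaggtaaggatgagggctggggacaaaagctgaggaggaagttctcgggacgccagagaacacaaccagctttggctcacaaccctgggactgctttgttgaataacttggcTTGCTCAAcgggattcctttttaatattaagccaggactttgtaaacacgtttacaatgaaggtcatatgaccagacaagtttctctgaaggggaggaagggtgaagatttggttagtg
The promoters of Alpl, Cilp, C1qtnf3, Lrg1 and Slc16a3 in the table held none of the 3 motifs, which says only that these letters are not in that window.

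AU-rich elements, counted as TATTTAT in the 3′ untranslated region of the longest coding transcript, were found in 44.1% of the 111 higher genes with such a region, in 28.6% of the 119 lower genes and in 29.3% of all genes tested. The regions of the higher genes were also longer than those of all genes, with a median of 1365 bases against 1147, and those of the lower genes longer still, at 1511 bases. Per 1000 bases there were 0.38 elements in the higher genes, 0.24 in the lower genes and 0.27 in all genes tested. Of the 16 IL-17 target genes higher in both pairs, 31.25% (5 genes) held 1 or more. Their regions were shorter, with a median of 555 bases, and held 1.13 elements per 1000 bases. Among the named genes Serpinb2 and Cxcl5 held 1 each and Dusp18 held 3, while Cp, Lgi2, Alpl, S1pr1, Lrg1, Lcn2 and Nfkbiz held 0, and the part of these letters in the ratios was not tested.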

How the data were processed

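Total RNA of cultured PαS cells was made into amplified cDNA with the SMART-Seq v4 kit and read on an Ion Proton, and the authors assigned reads to genes in CLC Genomics Workbench. The submitters' processing notes name mm10, and no source used here gives the mapping settings or the software version. The deposited files hold, for each of 4 libraries, read counts per gene (exon, unique, exon-exon and intron reads) and RPKM values computed by the authors, and no column of either kind was of an unknown sample. Total exon read counts were analysed as deposited, and the RPKM values were used in no test.

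Libraries were scaled by TMM in edgeR 4.0.16 under R 4.3.3, and genes averaging 50 or more exon reads per library were kept. Ratios of scaled reads carry exact 95% Clopper-Pearson intervals for counting error, log2 ratios use a pseudocount of 0.5 on CPM, and a library at 0 was set to a floor of 3 reads. The quasi-likelihood test with BMP-2 as an additive term was adjusted by Benjamini-Hochberg at 0.05, and DESeq2 1.42.0 was the alternative tool. Named genes were the 20 highest and the 20 lowest by the smaller of both log2 ratios in a shared direction, outside the IL-17 target list and with at least 80% unique reads, up to 3 by direction and up to 2 by reads from each of 30 lists, those beside the 2-fold limit, those passing the test, and Cxcl5, Lcn2 and Nfkbiz. Other genes are said to be chosen after their values were seen, or are given as members of a list or as markers. Members and lists were chosen with earlier results of these data known. Counting was not stated to use strand, so overlapping genes on opposite strands cannot be told apart. The statistics were tested on simulated data. Of the 20 highest genes, 1 is not reported here.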

Additional observations from a re-analysis of the deposited data

Results flagged for a closer look

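Of the list members, 7 were at least 2-fold apart in opposite directions in the pairs, where over all genes tested 154 of 8607 were. The number of different list members measured is not given, so the 7 cannot be read as a share beside that. These genes are described only because their pairs were opposite. The difference between the pairs was not tested, and each value rests on 1 library a side. Map3k7, encoding the kinase TAK1 that acts upstream of NF-κB, had 362 reads with IL-17A against 189 with no cytokine, a ratio of 2.09, and 174 with IL-17A + BMP-2 against 368 with BMP-2, a ratio of 0.459. Smad5, a transducer of BMP signals, had 212 reads with IL-17A against 82 with no cytokine, a ratio of 2.82, and 55 with IL-17A + BMP-2 against 208 with BMP-2, a ratio of 0.257. The receptor gene Notch2 had ratios of 3.77 without BMP-2 and 0.464 with it. These 3 genes were higher with IL-17A only in the pair without BMP-2.

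The other 4 were lower without BMP-2 and higher with it. Eif2ak3, encoding the stress sensor kinase PERK, had 40 reads with IL-17A against 244 with no cytokine, a ratio of 0.179, and 181 with IL-17A + BMP-2 against 83 with BMP-2, a ratio of 2.12. Cdt1, a factor that licenses DNA replication, had ratios of 0.451 without BMP-2 and 2.48 with it. Synpo2, an actin-binding protein, had ratios of 0.405 and 4.97. Itga6, an integrin subunit, had ratios of 0.0352 and 2.11, the first of them from 1 read with IL-17A against 31 with no cytokine.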

How the results depend on the processing

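Each condition was 1 library, so leaving out a replicate was not possible. No paired analysis was possible because the labels carry no replicate numbers and each condition was a single library, so the BMP-2 state was the only pairing that could enter a fit. The additive edgeR test passed 1 gene, Cxcl5, under every scaling and with unique or spliced reads or a mean of at least 10 reads. With a mean of 200 reads or more it passed 7 genes. Without a filter it passed 2 (Ccl2 and Cxcl5), and without a term for BMP-2 it passed 3 (Ccl2, Cxcl1 and Cxcl5), while DESeq2 passed 47. By 2-fold and interval alone, with no test, 1114 genes differed in the pair without BMP-2 and 1552 in the pair with BMP-2. The 243 genes 2-fold apart in both pairs (123 higher, 120 lower) became 645 (313 higher, 332 lower) with a mean of at least 10 reads, 747 (364 higher, 383 lower) with no filter and 42 (22 higher, 20 lower) with at least 200 reads. They became 794 (421 higher, 373 lower) at 1.5-fold and 60 (34 higher, 26 lower) at 3-fold. Opposite genes changed along with them, to 478, 557, 10, 534 and 23 in the same order of settings. Library totals gave 139 higher and 105 lower, with all genes moved by a median of 0.038 on the log2 scale. Spliced reads gave 123 higher and 122 lower, but only 78 and 83 of these were shared with the genes by all exon reads, and the cause was not tested. Of the named genes, Adipor2 was lower in both pairs and had a mean log2 ratio of 1.22 by spliced reads, where the pairs disagreed. By spliced reads 16 of the 173 named genes that had any gave another direction, among them Rrm2 and Cdkn1a, both lower in both pairs. By library totals 5 of 176 did so (Id3, Rbpj, Sgk1, P4hb and Fth1), and by unique reads 2 (Fdps and Rbpj). The median of the fat and lipid list had the other sign in the pair without BMP-2, at -0.0178. Depth limits the ratios of genes under 200 mean reads, of which most 2-fold genes are part.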

Other observations

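Since the medium held dexamethasone in every condition, a list of 16 glucocorticoid-induced genes was put together after Tsc22d3 had been seen, and it gets no test. Of the 15 measured genes, 6 were higher in both pairs, 8 were lower in both and 1 was opposite, with median log2 ratios of -0.28 without BMP-2 and -0.03 with it. Members thus went both ways. Over all genes tested, 27.2% were higher in both, 26.9% were lower in both and 3952 of 8607 were opposite. Fkbp5, a co-chaperone of the glucocorticoid receptor, had 948 reads with IL-17A against 1590 with no cytokine and 810 with IL-17A + BMP-2 against 1322 with BMP-2. Klf15, a transcription factor of metabolism, had 26 reads with IL-17A against 248 with no cytokine and 102 with IL-17A + BMP-2 against 179 with BMP-2. Zbtb16, a zinc finger transcription factor, had 55 reads with IL-17A against 102 with no cytokine and 57 with IL-17A + BMP-2 against 83 with BMP-2. In the other direction, Errfi1, a feedback inhibitor of the EGF receptor, had ratios of 1.76 without BMP-2 and 1.08 with it, and Map3k6 had 1.62 and 1.38. Klf9 had ratios of 1.20 and 1.24. Mt1 and Mt2 are also in the list and were higher in both pairs. Pdk4, with ratios of 0.286 and 0.329, and Cdkn1c, with 0.273 and 0.160, are list members too and were lower in both.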
